A study of Bos taurus with 14 samples.

Results

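The genes described are 8 that mark B cells, plasma cells and the handling of their antibodies: CD79A, CD79B, MS4A1, POU2AF1, TNFRSF17, MZB1, JCHAIN and PIGR. They were taken by gene symbol from a table of 17469 genes, and all 8 were found there, as 11 of its 49721 transcripts. The liver of 14 Holstein bull calves was sequenced, 1 poly(A)-selected library per calf. The control group (CON, n = 7) and the supplemented group (DCLI, n = 7) shared a diet of milk replacer, given at 1.75% of body weight, and starter from day 33. Milk replacer was reduced to 50% on day 82, and the calves were weaned by day 89 and slaughtered on day 90. Calves of the DCLI group were in addition given dead Lactobacillus ingluviei CR37 at 1 g per day, a postbiotic, meaning inactivated microbes given as a feed additive. The labels give no cell sorting, so each value is the level in a whole piece of liver, in which fewer cells of a type and less RNA per cell cannot be told apart.

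B cells carry a receptor made of a membrane antibody and a pair of signalling chains, CD79A and CD79B. When a B cell becomes a plasma cell it stops displaying most of this receptor and turns to secreting antibody. Some plasma cells join their antibodies into polymers with the J chain, the product of JCHAIN, and the polymeric immunoglobulin receptor, PIGR, takes up those polymers and carries them across epithelial cells into bile, milk or the gut lumen. PIGR is therefore not a gene of the B lineage itself. In the liver it is known from bile duct cells in humans and from hepatocytes in rats.

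Levels are in TPM, a measure of transcript abundance which is scaled for transcript length and library total, so that genes can be set against each other within a library. Every library sums to the same total in this unit, and its sequencing depth is unknown. Hepatocyte markers identified the tissue. Their summed level was 71020 to 116000 TPM in CON and 58800 to 126300 TPM in DCLI, and ALB (serum albumin), TF (transferrin) and FGB (a fibrinogen chain) led them. Control calves 1 and 2 stood apart from the others over the whole table: they had the highest level of 22.7% and 24.0% of the 11905 genes tested, and DCLI calf 2 that of 10.3%. Control calf 2 was also highest in T and NK cell markers. Its summed level was 787 TPM for 17 of them, against 87.55 to 262 TPM in the other control calves and 53.1 to 210 TPM in DCLI.

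The 8 genes differed widely in mean level. PIGR was highest, with a mean of 49.4 TPM over the 14 calves, and JCHAIN followed with 36.75 TPM. These neighbours were not separated, since PIGR exceeded JCHAIN in 6 of 14 calves. JCHAIN exceeded CD79A, the next gene at 8.68 TPM, in 14 of 14 calves. CD79A and MZB1 (5.94 TPM) were not separated either, with CD79A higher in 8 of 14 calves, nor were CD79B (3.71 TPM) and MS4A1 (3.24 TPM), with CD79B higher in 8 of 14. POU2AF1 had a mean of 1.03 TPM and TNFRSF17 of 0.184 TPM, and the first exceeded the second in 14 of 14 calves. By mean level over all genes of the table, PIGR ranked 1802, JCHAIN 2269, CD79A 6304 and TNFRSF17 14117.

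**Figure D1:**
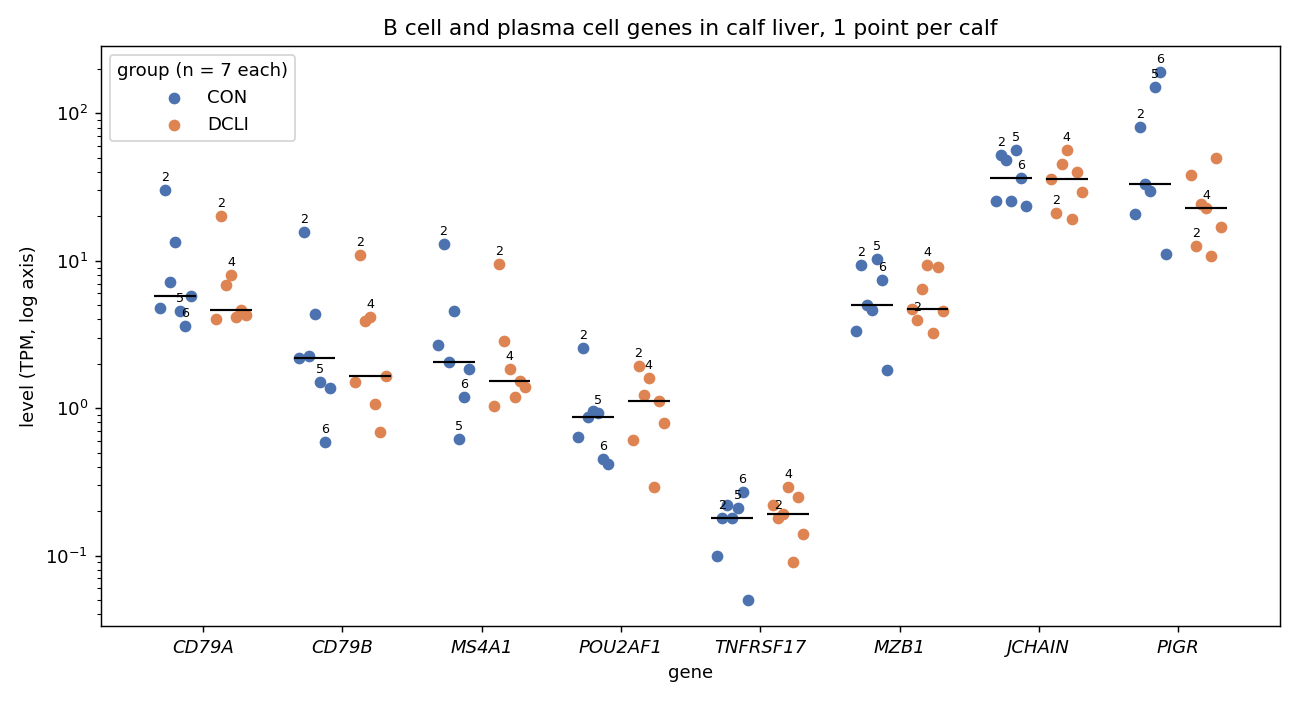
Level of each of the 8 genes in TPM (vertical log axis) in each CON calf (blue) and DCLI calf (orange), 1 point per calf, with a black line at the median of the 7 calves of a group. Numbers mark control calves 2, 5 and 6 and DCLI calves 2 and 4. The groups overlap for every gene, the calves numbered 2 lie on top for CD79A, CD79B and MS4A1, and control calves 5 and 6 lie on top for PIGR at 151.25 and 190 TPM.

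The receptor genes were set apart by 1 calf in each group. CD79A, a signalling chain of the B cell receptor, had 3.62 to 30.15 TPM in CON with a median of 5.79 TPM. In DCLI it had 4.04 to 19.98 TPM with a median of 4.63 TPM. The highest values belonged to control calf 2 (30.15 TPM) and DCLI calf 2 (19.98 TPM), while the next calf of each group had 13.49 and 7.96 TPM. The groups overlapped over nearly their whole ranges.

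CD79B, the partner chain, had 0.59 to 15.76 TPM in CON (median 2.19 TPM) and 0.69 to 11.02 TPM in DCLI (median 1.66 TPM). Control calf 2 and DCLI calf 2 were again highest, and the next values were 4.32 and 4.14 TPM. Within a library CD79A exceeded CD79B by 1.74-fold to 6.71-fold, with a median ratio of 2.86. The ratio moved far less from calf to calf than either gene, which spread over 8.33-fold (CD79A) and 26.7-fold (CD79B).

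MS4A1 encodes CD20, a membrane protein of B cells that plasma cells lose. Its level was 0.62 to 13.02 TPM in CON (median 2.07 TPM) and 1.04 to 9.5 TPM in DCLI (median 1.53 TPM). Control calf 2 and DCLI calf 2 were highest here too, followed by control calf 4 with 4.58 TPM. Control calf 5 was lowest with 0.62 TPM, although that calf had the highest MZB1 and the second highest JCHAIN, given below.

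POU2AF1, a coactivator that B cells and plasma cells use at antibody promoters, had 0.42 to 2.54 TPM in CON (median 0.87 TPM) and 0.29 to 1.93 TPM in DCLI (median 1.11 TPM). It reached 1 TPM in 5 of 14 libraries and so missed the filter used for the test over all genes, which asks for 1 TPM in 7. Control calf 2 and DCLI calf 2 led this gene as well. DCLI calf 4 followed with 1.60 TPM, whereas control calf 4 came next for CD79A, CD79B and MS4A1.

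TNFRSF17 encodes BCMA, a receptor through which plasma cells receive survival signals. It was at the lower end of what the table records, with 0.05 to 0.27 TPM in CON and 0.09 to 0.29 TPM in DCLI. It was above 0 in every library and reached 1 TPM in 0 of 14, so it missed the filter. At 2 decimals its values are coarse. RefSeq's genes for ARS-UCD2.0 do not hold the ID under which the table lists TNFRSF17 and give the symbol to another ID. The role stated here is that of the symbol, and whether the listed ID is the same gene was not tested.

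MZB1, an endoplasmic reticulum protein that helps antibody assembly, had 1.82 to 10.22 TPM in CON (median 4.98 TPM) and 3.26 to 9.33 TPM in DCLI (median 4.71 TPM). Control calf 5 was highest with 10.22 TPM, followed by control calf 2 (9.42 TPM) and DCLI calves 4 and 6 (9.33 and 9.05 TPM). Control calf 7 was lowest. DCLI calf 2, so high in the receptor genes, had 3.95 TPM and lay below the median of its group.

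JCHAIN was the steadiest of the genes expressed above 1 TPM in mean. It had 23.5 to 56.2 TPM in CON (median 36.5 TPM) and 19.2 to 56.6 TPM in DCLI (median 35.8 TPM). The highest value was 2.94-fold the lowest. DCLI calf 4, control calf 5 and control calf 2 led with 56.56, 56.21 and 51.87 TPM, and DCLI calf 2 was second lowest of all calves with 21.17 TPM. The coefficient of variation over the 14 calves was 35.9% for JCHAIN and 45.55% for MZB1, against 88.1% for CD79A, 118% for CD79B and 111% for MS4A1.

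PIGR had 11.07 to 190 TPM in CON (median 33.1 TPM) and 10.83 to 49.8 TPM in DCLI (median 22.9 TPM). Control calves 6, 5 and 2 had 190, 151.25 and 81.0 TPM, above all 7 DCLI calves. The other 4 control calves had 11.07 to 33.1 TPM and lay within the DCLI range. The CON mean of 73.8 TPM (SD 70.6, n = 7) was therefore carried by 3 calves, and it was 54.5 TPM without control calf 6.

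The comparison of DCLI with CON asks whether the supplement went with a different level of these genes. By limma fitted to all 11905 genes that passed the filter, 0 of the 6 members that passed it were called at an adjusted p of 0.05, where 0% of all tested genes were called. At an unadjusted p under 0.05 the count was 0 of 6 members, against 8.89% of all tested genes, 3.19% lower and 5.7% higher in DCLI. Of the 6 members, 5 were lower and 1 higher in DCLI, with a median log2 fold change of -0.16 where that of all tested genes was -0.01. These changes are on the log2(TPM + 1) scale, which understates the change of genes of low level.

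PIGR had the largest difference, -1.08 ± 0.55 (SE, 7 calves a group) as log2 fold change, from a mean of 73.8 TPM in CON to 25.0 TPM (SD 14.2) in DCLI. It did not pass (limma adjusted p = 0.583, unadjusted p = 0.0690, exact two-sided permutation p = 0.117 over all 3432 assignments of the calves). The 95% interval ran from -2.26 to 0.09. DCLI calves lay below the CON median in 5 of 7 cases. Without control calf 7, the lowest control, the log2 fold change was -1.42 with an exact permutation p of 0.0367 and a limma adjusted p of 0.227. Without any other single calf the exact p stayed above 0.05, and it was highest without control calf 6 (log2 fold change -0.75, exact permutation p = 0.230).

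For the receptor genes the estimates were small beside their errors. CD79A differed by -0.24 ± 0.41 (SE; 95% interval -1.11 to 0.62; limma adjusted p = 0.877; exact permutation p = 0.618). MS4A1 differed by -0.21 ± 0.44 (SE; 95% interval -1.14 to 0.71; limma adjusted p = 0.9065). Both signs rested on control calf 2: without it the log2 fold changes were 0.06 for CD79A and 0.11 for MS4A1. CD79B differed by -0.04 ± 0.49 (SE; 95% interval -1.09 to 1.00; limma adjusted p = 0.986), and its sign turned when any of 6 single calves was left out, with 0.32 without control calf 2 and -0.34 without DCLI calf 2. The intervals of CD79A, CD79B and MS4A1 each include a 2-fold lower level in DCLI. Since the log2(TPM + 1) scale understates changes at low level, the upper limit of 1.00 for CD79B does not exclude a 2-fold rise in TPM.

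The plasma cell genes gave narrower intervals. JCHAIN differed by -0.11 ± 0.26 (SE; 95% interval -0.66 to 0.44; limma adjusted p = 0.921; exact permutation p = 0.695). MZB1 differed by 0.05 ± 0.29 (SE; 95% interval -0.58 to 0.67; limma adjusted p = 0.973). On the log2(TPM + 1) scale the intervals of JCHAIN and MZB1 exclude a 2-fold change either way. Each sign was open to single calves: JCHAIN stood at 0.01 without DCLI calf 5, and MZB1 at -0.15 without control calf 7, with a negative sign also without control calf 1 or DCLI calves 4 or 6. POU2AF1 (0.09 ± 0.21) and TNFRSF17 (0.03 ± 0.05, SE) were fitted without the filter and were not called (limma adjusted p of 0.920 and 0.885, n = 7 each).

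**Figure D2:**
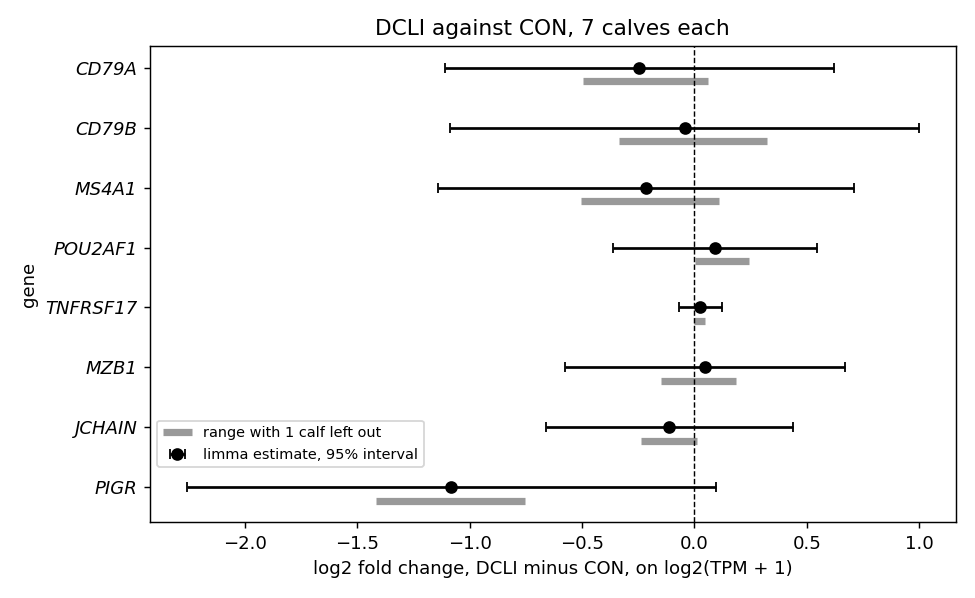
Log2 fold change of DCLI over CON on the log2(TPM + 1) scale (horizontal axis) for each gene, with the limma estimate and its 95% interval in black and, in grey, the lowest to highest estimate with 1 calf left out. Every interval includes 0, and PIGR, at -1.08, is the one gene whose estimate lies beyond 0.5 in size.

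Over the calves, the correlations that passed lay within 2 sets of the 8 genes, with POU2AF1 the least settled in its set. All 28 pairs of members were correlated over the 14 calves on log2(TPM + 1), with 100000 random pairings behind each p and adjustment over the 28 pairs. Among the 6 pairs of CD79A, CD79B, MS4A1 and POU2AF1, 6 passed an adjusted p of 0.05 by both Pearson and Spearman correlation, with rho from 0.66 to 0.90. Among the 6 pairs of JCHAIN, MZB1, TNFRSF17 and PIGR, 6 passed as well, with rho from 0.67 to 0.91. Of the 16 pairs that join one set with the other, 0 passed, with rho from -0.21 to 0.56 and a lowest adjusted p of 0.0851 (Spearman) and 0.102 (Pearson). No split into sets was planned, and the sets used here hold exactly the pairs that passed. These counts therefore describe the correlations and do not test a division by role. The difference between the sets of correlations was not itself tested.

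**Figure D3:**
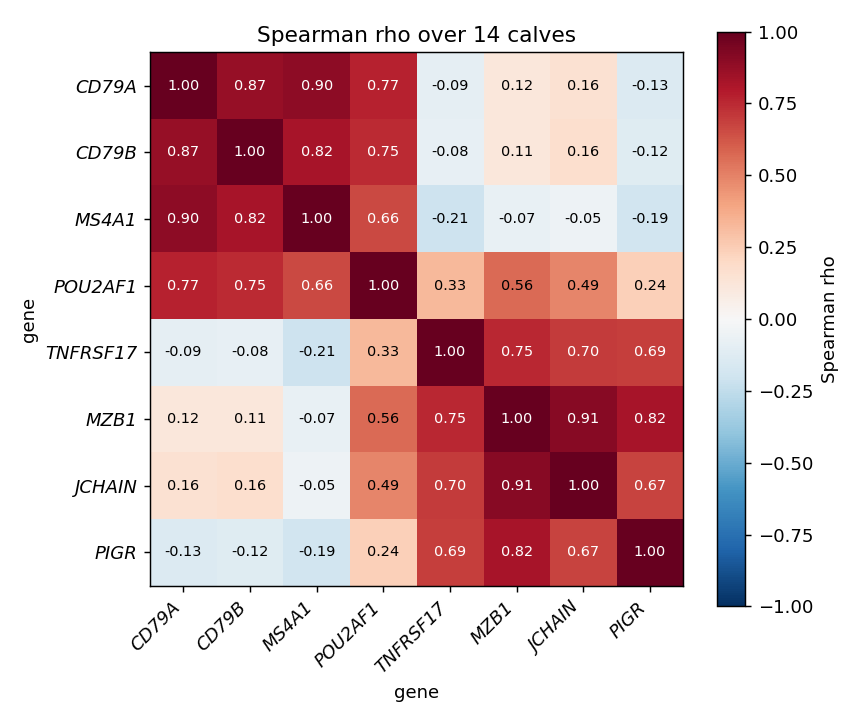
Spearman rho over 14 calves for each pair of the 8 genes, with red for positive and blue for negative values. The upper left block (CD79A, CD79B, MS4A1, POU2AF1) has rho of at least 0.66 and the lower right block (TNFRSF17, MZB1, JCHAIN, PIGR) of at least 0.67, and between them the values run from -0.21 to 0.56.

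CD79A and MS4A1 rose and fell together from calf to calf (Pearson r = 0.95, permutation p = 2e-05, adjusted 0.00028; Spearman rho = 0.90, adjusted p = 0.00098, n = 14). The relation did not rest on the 2 extreme calves. Without control calf 2 and DCLI calf 2, which are farthest from the median of CD79A, r was 0.81 (permutation p = 0.00186, n = 12). Within groups it was 0.94 in CON and 0.965 in DCLI (exact permutation p of 0.00496 and 0.00556, n = 7 each). CD79A with CD79B behaved alike (r = 0.95, rho = 0.87; r = 0.83 without those 2 calves), and so did CD79B with MS4A1 (r = 0.92, rho = 0.82; r = 0.70 without them).

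POU2AF1 was the loosest member of the first set. Its r with MS4A1 was 0.755 over 14 calves and 0.30 without the 2 extreme calves (permutation p = 0.340), so that relation rested on those 2 calves. With CD79A it was 0.825 and then 0.52 (permutation p = 0.0805), which also no longer passed, and with CD79B 0.86 and then 0.63 (permutation p = 0.0278). Without the same calves POU2AF1 had r of 0.73 with JCHAIN and 0.67 with MZB1 (permutation p of 0.00747 and 0.0157, unadjusted), where over all 14 calves those were 0.45 and 0.54 and did not pass.

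JCHAIN and MZB1 had the highest rho of all 28 pairs (rho = 0.91, adjusted p = 0.00028; r = 0.84, adjusted p = 0.00118, permutation tests, n = 14). Without DCLI calves 2 and 5, farthest from the median of JCHAIN, r was 0.84. Within groups r was 0.84 in CON and 0.89 in DCLI (exact permutation p of 0.0244 and 0.00813, n = 7 each). JCHAIN exceeded MZB1 by 4.43-fold to 12.9-fold in a library, a spread of 2.92-fold between calves. The ratio of JCHAIN to MS4A1, by contrast, ran from 2.23 in DCLI calf 2 to 90.7 in control calf 5, a spread of 40.7-fold. TNFRSF17, low as it is, followed MZB1 (r = 0.82, rho = 0.75, adjusted p of 0.00154 and 0.0107 by permutation).

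JCHAIN and CD79A, 1 of the 16 pairs between the sets, had almost no correlation (r = 0.06, rho = 0.16, adjusted permutation p of 0.940 and 0.820, n = 14). The highest of the 16 was POU2AF1 with MZB1 (r = 0.54, rho = 0.56), which did not pass after adjustment. Control calf 2 was high in CD79A and JCHAIN. DCLI calf 2 was second highest in CD79A and second lowest in JCHAIN. Control calf 5 was second highest in JCHAIN with 4.56 TPM of CD79A, below the CON median.

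**Figure D4:**
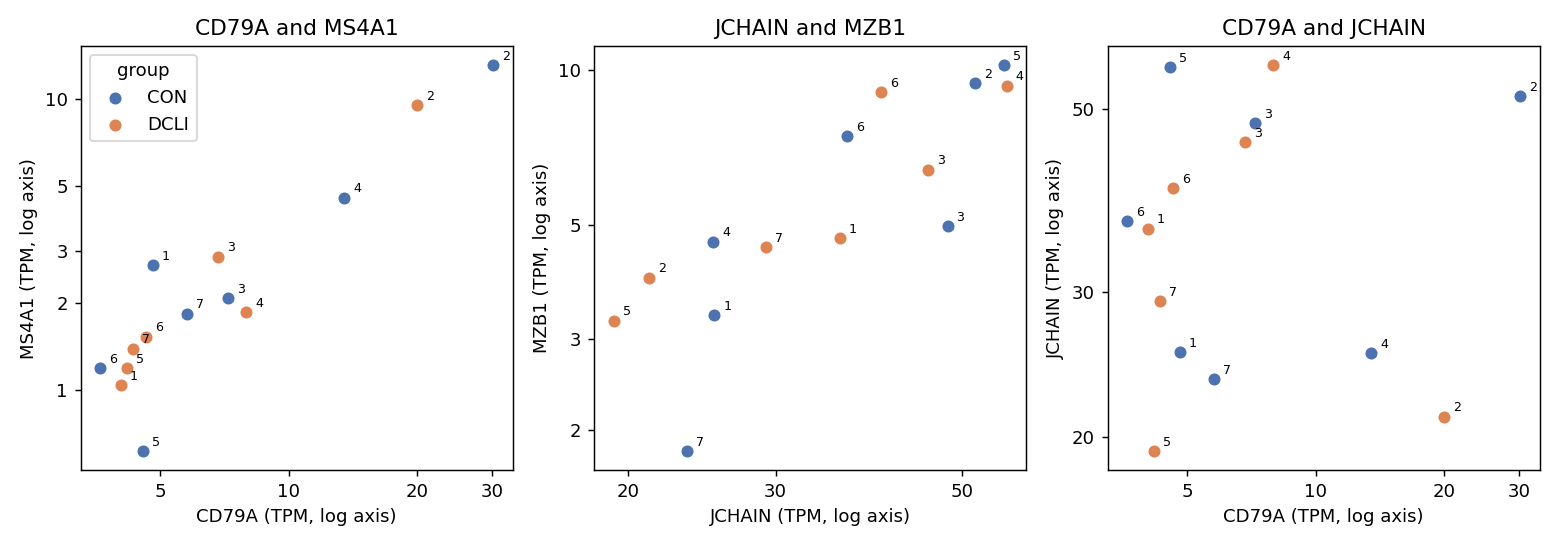
Level in TPM of CD79A and MS4A1 (left), JCHAIN and MZB1 (middle) and CD79A and JCHAIN (right), both axes log, 1 point per calf with its number, CON in blue and DCLI in orange. The left and middle panels rise (r = 0.95 and 0.84), and the right panel does not (r = 0.06).

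In these correlations PIGR went with MZB1, TNFRSF17 and JCHAIN rather than with the receptor genes. Its rho was 0.82 with MZB1, 0.69 with TNFRSF17 and 0.67 with JCHAIN (adjusted permutation p of 0.00358, 0.0225 and 0.0248, n = 14). With MZB1 the Pearson r was 0.745, and 0.755 without control calves 5 and 6, which had the highest PIGR. It was 0.64 without control calves 5 and 7, farthest from the median of MZB1 (permutation p = 0.0197). Without DCLI calves 2 and 5 the r of PIGR with JCHAIN was 0.51 and no longer passed (permutation p = 0.0952). PIGR per JCHAIN ranged from 0.405 in DCLI calf 4 to 5.20 in control calf 6, with a median of 1.17 in CON and 0.578 in DCLI.

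Of all genes that passed the filter and carry a symbol, the 3 most like each member by Spearman rho over the 14 calves were as follows, given as a likeness and not as a test. For JCHAIN they were MZB1 (rho 0.91), the gene listed as IGLL1 (0.90) and S100A2 (0.85), and for MZB1 they were JCHAIN (0.91), the gene listed as IGLL1 (0.91) and MOCOS, a molybdenum cofactor sulfurase (0.90). The gene listed as IGLL1 had 36.3 TPM in DCLI calf 5, its lowest, and 206 TPM in control calf 5, its highest. RefSeq gives its ID no name and the symbol to another ID, so no role is stated for it. The 100th gene in order of likeness had a rho of 0.62 for JCHAIN and 0.65 for MZB1.

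The receptor genes had many near neighbours, with a rho of 0.82 at the 100th gene for CD79A, 0.82 for CD79B and 0.86 for MS4A1. The rho of 0.82 between CD79B and MS4A1 lay below that of the 100th gene of MS4A1. For CD79A the nearest were ACP5, an acid phosphatase abundant in macrophages and osteoclasts (0.91), CFAP20 (0.90) and MS4A1 (0.90). For CD79B they were ESYT1 (0.91), RASGRP2, an activator of Rap proteins in platelets and lymphocytes (0.91), and GPR183, an oxysterol receptor that guides B cells (0.90). For MS4A1 they were the zinc transporter gene SLC39A10 (0.96), the RNA helicase gene DDX42 (0.95) and PRF1, which encodes perforin of cytotoxic lymphocytes (0.94). Control calf 2 was highest for 7 of these 8 genes that are no members. RASGRP2 was highest in DCLI calf 2.

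For PIGR the nearest genes were STEAP4, a metalloreductase (0.93), CHI3L2, a chitinase-like protein (0.91), and SPIDR, a scaffold of DNA repair (0.89). The 100th gene had a rho of 0.65, close to the 0.69 of TNFRSF17 and the 0.67 of JCHAIN with PIGR. CHI3L2 had 173 TPM in control calf 5 and 169 TPM in control calf 6, against 0.52 to 38.7 TPM in the other 12 calves. STEAP4 had its highest level, 35.2 TPM, in control calf 6, and SPIDR, with 121 TPM, in DCLI calf 6.

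**Figure D5:**
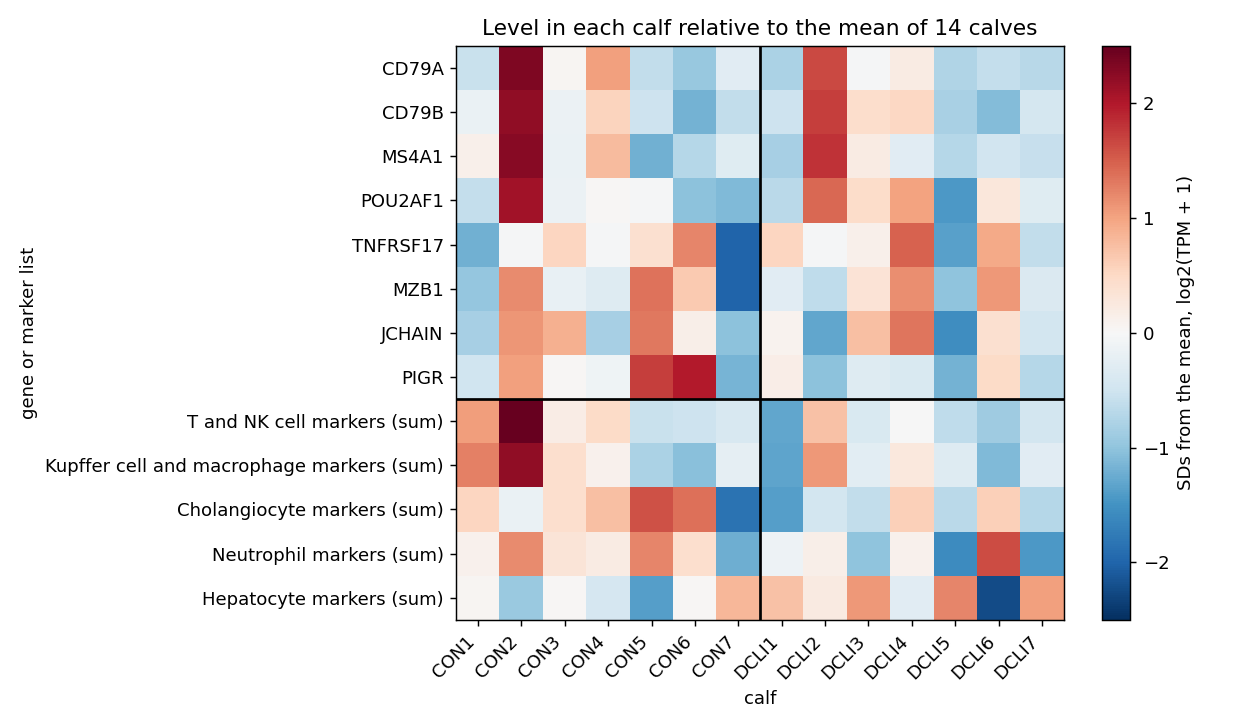
Each calf's level (column) of the 8 genes and of the summed TPM of 5 marker lists (rows), in SDs from the mean of the 14 calves on log2(TPM + 1), red above and blue below. Control calf 2 is red in all rows of receptor genes, T and NK cells and macrophages, and control calves 5 and 6 are red for PIGR, MZB1 and the cholangiocyte markers.

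Of the other markers of the B lineage, some were highest in the calves numbered 2 and some were not. Of 18 genes of the B cell receptor complex and surface found in the table, 9 passed the filter, and of these 1 was higher and 8 lower in DCLI, with 0 called (median log2 fold change -0.37, and -0.19 without control calf 2). Of the 18, 10 were highest in control calf 2 and 4 in DCLI calf 2, while CR2 was highest in control calf 1 and CD24 in control calf 5. CD37, a tetraspanin of B cells, averaged 9.05 ± 8.34 TPM (SD) in CON and 6.56 ± 4.03 TPM in DCLI, with 7 calves each. CD22, an inhibitory coreceptor, had 7.27 and 6.31 TPM, and CD40, which receives help from T cells, 7.63 and 4.79 TPM. The summed level of the 18 genes was highest in control calf 2 (127 TPM), then in control calf 1 (88.2 TPM) and DCLI calf 2 (87.5 TPM). Control calf 1 had 24.5 TPM of CR2, complement receptor 2, a gene of mature B cells and follicular dendritic cells, against 0.90 to 9.69 TPM in the other calves, while its CD79A was 4.81 TPM. CXCL13, the chemokine of B cell follicles, was listed at 0 in 12 of 14 libraries and reached 0.11 TPM.

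Among 16 genes of B cell receptor signalling, 16 passed the filter, with 2 higher, 14 lower and 0 called (median log2 fold change -0.22). That median was -0.038 without control calf 2. Those of highest level, PTPN6, PIK3AP1 and LYN, encode a phosphatase, an adaptor and a kinase that other white blood cells also use, and had 41.5 and 34.3, 30.6 and 27.8, and 28.4 and 24.1 TPM in CON and DCLI. Of 10 B lineage transcription factors tested, 0 were higher, 10 lower and 0 called (median -0.29, and -0.072 without control calf 2). IRF8, SPI1 and BCL6 led them with 27.35, 16.4 and 6.71 TPM over all calves, and the first pair also serve macrophages. BCL6 was highest in DCLI calf 1. PAX5, which defines the B cell fate, missed the filter, with at most 0.71 TPM, in control calf 2. EBF1 and BACH2 also missed it and had a higher mean in DCLI. EBF1 averaged 0.60 TPM in CON and 1.16 TPM in DCLI, and BACH2 0.33 and 0.47 TPM. The other factors under the filter, PAX5, POU2F2 and BCL11A, had a lower mean in DCLI. Of all tested genes 51.2% were lower.

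Markers of other immune cells had similar signs. All 17 T and NK cell markers had a lower mean in DCLI (median -0.50), as did 13 of 14 markers of Kupffer cells and macrophages (median -0.37), with 0 called in either. CCL5, CD3E and NKG7 were the most abundant T and NK cell markers (59.8, 19.0 and 16.4 TPM over all calves), and the complement genes C1QA, C1QB and C1QC the most abundant macrophage markers (965, 748 and 696.5 TPM). Control calf 2 had the highest summed level of both lists and of CD79A, CD79B and MS4A1. Without it the median was -0.21 for T and NK cell markers and -0.17 for macrophage markers. Over the 14 calves, rho with CD79A ran from 0.48 (GZMB) to 0.86 (CD2) in the T and NK cell list. Among macrophage markers it ran from 0.48 (MRC1) to 0.85 (AIF1). CD79B and MS4A1 had 0.87 and 0.90. The part of T and NK cells and macrophages in the values of the B cell genes was not tested. Plasmacytoid dendritic cells can also express JCHAIN and MZB1. The summed level of 11 of their markers was highest in control calf 2 (96.8 TPM) and DCLI calf 2 (82.2 TPM), led by IL3RA, IRF7 and GZMB. LILRA4, a more restricted marker of these cells in humans, missed the filter. It was highest in DCLI calf 4 (2.43 TPM), which led JCHAIN, and stood at 1.38 TPM in control calf 5 and 0.17 TPM in control calf 2. It was at 0 in control calf 6 and 0.10 TPM in control calf 3, but 1.01 TPM in control calf 1. Over the 11 markers the rho with JCHAIN ran from -0.30 (GZMB) to 0.33 (LILRA4). The part of these cells in the levels of JCHAIN and MZB1 was not tested.

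Among 20 plasma cell and secretory genes, 20 passed the filter, 10 higher and 10 lower in DCLI and 0 called, with a median log2 fold change of -0.00 beside -0.01 for all genes tested. The most abundant were SSR4, HSP90B1 and PDIA4, general genes of protein secretion that hepatocytes also use, at 373, 290 and 255.5 TPM over all calves. DCLI calf 4, the highest in JCHAIN and TNFRSF17, had the highest summed level of the list, 2992 TPM, against 1459 to 2219 TPM in the others. IRF4 and PRDM1, transcription factors of plasma cells, chosen for their role after their values were seen, were low, at 1.32 and 1.63 TPM.

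Of the genes for B cell survival and homing signals, 10 of 16 passed the filter, with 1 higher, 9 lower and 0 called (median -0.29). CXCL12, a chemokine that retains plasma cells in bone marrow, averaged 86.2 ± 12.9 TPM (SD) in CON and 81.9 ± 8.89 TPM in DCLI, and TGFB1, a switch factor for IgA in B cells, had 18.6 and 13.9 TPM. CCL19, a chemokine of lymphoid tissue, averaged 12.3 ± 5.46 TPM (SD) in CON and 4.57 ± 1.18 TPM in DCLI. This difference, -1.07 ± 0.36 (SE) in log2, was not called (limma adjusted p = 0.433). Its highest value was in control calf 6, as for PIGR.

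The genes listed for the transport or control of PIGR and its cargo, which also include FCGRT, a separate receptor, showed no common side. Of 15 that passed the filter 8 were higher and 7 lower in DCLI, with 0 called (median 0.10). FCGRT, the neonatal Fc receptor that rescues IgG, averaged 404 ± 78.2 TPM (SD) in CON and 472 ± 49.4 TPM in DCLI. VAMP8, a vesicle fusion protein, had 170 and 142.5 TPM, and RAB11A, a GTPase of recycling endosomes, 43.7 and 39.3 TPM.

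Cholangiocyte and neutrophil markers are given beside PIGR. The summed level of the cholangiocyte markers was 96.8 TPM in control calf 5 and 88.0 TPM in control calf 6, against 19.3 to 65.7 TPM in the other 12 calves. Control calf 2, next in PIGR after these calves, had 42.9 TPM. Over the groups the sum ran from 19.3 to 96.8 TPM in CON and from 24.4 to 61.5 TPM in DCLI. Of 7 tested markers 2 were higher and 5 lower in DCLI, with 0 called (median -0.43). CLDN4, EPCAM and AQP1 were the most abundant at 18.65, 10.7 and 5.99 TPM, and KRT7 and KRT19, the defining keratins, were present in every library. Over the 14 calves the rho with PIGR was 0.71 for CLDN4, 0.43 for KRT7, 0.25 for KRT19 and 0.02 for EPCAM. Of 6 tested neutrophil markers 0 were higher and 6 lower in DCLI, with 0 called (median -0.36), led by FCGR3A, S100A12 and S100A8 at 52.75, 49.9 and 23.9 TPM. Their rho with PIGR was 0.89 for S100A12, 0.88 for LTF, 0.74 for S100A9, 0.65 for S100A8, 0.08 for CXCR2 and -0.28 for FCGR3A. The summed level of the 9 neutrophil markers found, tested or not, was 235 TPM in control calf 5, 231 TPM in control calf 2 and 165 TPM in control calf 6. It was 280 TPM in DCLI calf 6, which had the highest PIGR of its group. In control calf 2 FCGR3A alone had 131.64 TPM, beside 64.71 TPM of S100A12 and 11.95 TPM of S100A8. These rho values describe the same 14 libraries and carry no test. The part of either cell type in the level of PIGR was not tested.

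CD79A and CD79B were the members with more than 1 transcript in the table. A single CD79A transcript made up 80.6% of the gene's mean level, with 54.7% to 91.3% of it in every calf. The remaining 2 made up 14.9% and 4.5%, and the last was listed at 0 in 8 of 14 libraries. CD79B was divided nearly evenly, 47.7% and 52.3% of the mean level. The balance differed between calves: the first transcript was the whole of CD79B in control calf 6 and DCLI calf 1 and was listed at 0 in DCLI calf 6. Reads shared by transcripts of a gene are assigned by estimation, and at this low level the split is uncertain, so the sum per gene was used throughout.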

How the data were processed

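Total RNA of liver was poly(A)-selected and sequenced on a DNBSEQ instrument, 1 library per calf, and reads were filtered with SOAPnuke 1.5.6, per the labels' protocols. RSEM 1.3.1 and DESeq2 1.4.5 are named in the submitters' processing notes. Which aligner and build were used is not given in the sources used here. What the authors deposited is TPM per RefSeq transcript, in 1 table with 14 library columns. TPM holds no depth, so no counting interval can be given. Libraries titled as treated were taken as DCLI.

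TPM was summed per gene ID. The 11905 genes that reached 1 TPM in 7 or more libraries were tested as log2(TPM + 1) with limma 3.58.1 in R 4.3.3 (mean-variance trend, two-sided, Benjamini-Hochberg over all genes, threshold 0.05). The step was tested on simulated data. Exact permutation tests covered all 3432 assignments of calves. Members under the filter were fitted without it. Members, gene lists and comparisons were chosen with earlier results of these data known. From each list the 3 genes of highest mean TPM are named. Others were named for their values or role: CR2, CD24, CXCL13, PAX5, EBF1, BACH2, POU2F2, BCL11A, LILRA4, KRT7, KRT19, LTF, S100A9, CXCR2, IRF4, PRDM1. Alternatives were pseudocounts, filters, scalings, variance models, a replicate block, transcripts, a rank-sum test and leaving out each calf. Plots were made in matplotlib 3.10.9.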

Additional observations from a re-analysis of the deposited data

Results flagged for a closer look

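Single calves lay far from the rest of their group, by the gap to the nearest calf over the group's range (Dixon's 95% critical value for 7 calves), in 14 cases among 42 groups of values (the 8 genes and the summed TPM of 13 marker lists, in CON and DCLI). Chance flags about 1 group in 20 for normal values and may flag more in skewed TPM, and the cases share calves, so they are not separate events. On log2(TPM + 1), a scale chosen after seeing the data, 4 of the 14 remained past the limit: CD79A and MS4A1 and the B lineage transcription factors in DCLI calf 2, and POU2AF1 in control calf 2. That scale added 1 case, the low survival and homing genes of control calf 7. In control calf 2 they were CD79A (30.15 TPM, nearest calf 13.49), CD79B (15.76, nearest 4.32), MS4A1 (13.02, nearest 4.58) and POU2AF1 (2.54, nearest 0.96), and the summed B lineage transcription factors (183 TPM), T and NK cell markers (787 TPM) and plasmacytoid dendritic cell markers (96.8 TPM). In DCLI calf 2 they were CD79A (19.98 TPM, nearest 7.96), CD79B (11.02, nearest 4.14), MS4A1 (9.5, nearest 2.87), the transcription factors (116 TPM) and the plasmacytoid dendritic cell markers (82.2 TPM). The others were the plasma cell and secretory genes of DCLI calf 4 (2992 TPM, nearest 2036) and the neutrophil markers of DCLI calf 6 (280 TPM, nearest 147). JCHAIN, MZB1, TNFRSF17 and PIGR gave no such case.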

How the results depend on the processing

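TPM carries no depth, so counting error could not be separated from differences between calves, and the lowest genes, TNFRSF17 and POU2AF1, are the least certain. By limma 0 members were called under every alternative run, including transcripts in place of genes, and 0 by the exact rank-sum test. Over all genes the count was 0 in the analysis reported, 1 with the replicate number as a block, 12 without control calf 7 and 1388 with sample weights. The labels do not say that a number pairs calves, and the correlation of same-numbered deviations ran from -0.18 to 0.45, over 0.1 in 4 of 7 pairs, so pairing was not taken as shown. With the replicate block the unadjusted limma p was 0.0472 for PIGR and 0.0875 for CD79A (adjusted 0.4675 and 0.552), at unchanged estimates of -1.08 and -0.24. Without control calf 7 PIGR passed the exact permutation test (-1.42, p = 0.0367) but not limma. CD79B turned sign with quantile normalization (0.013) and sample weights (0.0033), and MZB1 with sample weights (-0.15). Sample weights took PIGR to -1.49 (limma adjusted p = 0.0524).

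With 1 calf left out, the estimate in log2 spanned -0.50 to 0.063 for CD79A, -0.34 to 0.32 for CD79B, -0.50 to 0.11 for MS4A1, -0.24 to 0.014 for JCHAIN, -0.15 to 0.19 for MZB1 and -1.42 to -0.75 for PIGR. Among the list medians that moved were those of survival and homing genes (-0.060 unfiltered, -0.067 among genes averaging 5 TPM or more) and neutrophil markers (-1.22 with sample weights). Others shrank without control calf 2, as given above, or with sample weights (-0.041 for receptor signalling), and that of plasmacytoid dendritic cell markers turned from -0.19 to 0.015 without that calf and to 0.12 with sample weights. The cause was not tested.

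Several correlations between the sets, none of which passed over 14 calves, turned sign. For MS4A1 and MZB1 r was -0.032 with log2(TPM + 0.1) and -0.092 with median-ratio scaling, and with that scaling it was -0.022 for CD79A and TNFRSF17, -0.083 for CD79B and TNFRSF17 and -0.0035 for CD79B and JCHAIN. With 1 calf left out, r of CD79A ran from -0.054 to 0.14 with TNFRSF17, -0.22 to 0.29 with JCHAIN, -0.13 to 0.26 with MZB1 and -0.37 to 0.11 with PIGR. That of CD79B ran from -0.081 to 0.17, -0.12 to 0.37, -0.093 to 0.28 and -0.43 to 0.079 with the same genes. That of MS4A1 ran from -0.43 to 0.12 with JCHAIN, -0.30 to 0.16 with MZB1 and -0.47 to 0.031 with PIGR, and that of POU2AF1 with PIGR from -0.076 to 0.37.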

Other observations

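PRSS2, a pancreatic trypsinogen, was listed at 0 in 7 of 7 DCLI libraries and stood above 0 in 5 control libraries, with 16.55 TPM in control calf 1 and 15.25 TPM in control calf 7. CD79A was 4.81 and 5.79 TPM in these calves, and control calf 1 had the highest CR2. VIL1, villin, had 5.16 TPM in CON and 3.95 TPM in DCLI. The values are given without a test.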
